A study of Homo sapiens with 8 samples.

Results

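The genes described here are 10 carriers that bring amino acids across the plasma membrane, chosen by name from the 20453 Ensembl gene IDs counted in each library. They are 3 leucine carriers or carrier subunits (SLC7A5, SLC3A2 and SLC43A1), 5 carriers of glutamine and small neutral amino acids (SLC1A5, SLC38A1, SLC38A2, SLC38A5 and SLC1A4), 1 cystine carrier (SLC7A11) and 1 carrier of cationic amino acids (SLC7A1). The mutant cells, given as THP-1 (a line from human acute monocytic leukaemia), had been transduced with DNMT3A R882H, a recurrent leukaemia mutant of this de novo DNA methyltransferase. The wild-type cells, given as the same line, had been transduced with wild-type DNMT3A, so both groups carry an introduced DNMT3A. Whether either is 1 clone or a pool is not stated. Each genotype had 2 RNA-seq libraries (mRNA) and 2 ribosome profiling libraries, which count mRNA pieces shielded by ribosomes from RNase (footprints).

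Cells take up leucine mainly through LAT1, in which the transport subunit SLC7A5 is held at the membrane by the glycoprotein SLC3A2. LAT1 is an exchanger: it brings leucine in as it lets another amino acid, often glutamine, out, so that the glutamine carriers feed it. Leucine that enters this way is a substrate of branched-chain amino acid catabolism, the pathway in the study's title, and a signal for the kinase complex mTORC1. SLC3A2 also pairs with SLC7A11, which imports cystine in exchange for glutamate and so supplies glutathione synthesis. Several of these genes are known targets of the transcription factors ATF4 and MYC.

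Total counts per library were 3901659 and 4393445 in mutant and 3415999 and 4523475 in wild-type mRNA, and 603360 and 944824 in mutant and 1611724 and 1988513 in wild-type footprints. Levels below are CPM, counts scaled to a common library size with TMM factors within each assay, and n = 2 libraries in every group. A floor of 3 counts stood for 0.663 to 0.878 CPM in mRNA and 1.51 to 4.97 CPM in footprints, for counting error only, and every carrier lay far above it. The 2 footprint libraries of a genotype differed by no more than sampling noise (chi-square per degree of freedom 0.925 in mutant and 1.01 in wild type), while the mRNA replicates differed by more (1.33 in mutant and 1.08 in wild type). No label states that replicates are separate cultures, so the p-values cover the spread among these libraries alone, and that spread may be technical. DNMT3A mRNA stood at 240.5 and 244 CPM in mutant and 291 and 294 CPM in wild-type libraries (edgeR log2 fold change -0.27, adjusted p = 4.2e-06), where the introduced and the endogenous copy are counted together. The monocyte label was not borne out by the markers: S100A8, S100A9, FCN1, IRF8 and MPEG1 had no count in any of the 8 libraries, and 5 of 16 monocyte markers reached 10 CPM in mutant mRNA and 6 of 16 in wild-type mRNA. By contrast 16 of 17 erythroid and megakaryocyte markers did so in mRNA of both genotypes, with GATA1 at a mean of 398 CPM in mutant and 437 CPM in wild type. Their summed mRNA was 3108 and 3148 CPM in mutant libraries, against 3594 and 3622 CPM in wild-type libraries. Of 5 epithelial markers 4 reached 10 CPM and CDH1 had no count, with a sum of 915 and 912 CPM in mutant and 1164 and 1201 CPM in wild-type mRNA. The part of these markers in the results below was not tested, and in bulk RNA fewer cells of a type cannot be told apart from less RNA per cell.

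The promoter sequences of 9 of the 10 carriers were found in RefSeq (GRCh38.p14), as 16 windows of 300 bases that run from 250 bases before each listed start to 50 bases after it. Both strands were searched for CACGTG, the E-box that MYC and its partners bind, and for TGATGNAA, the element bound by ATF4 with C/EBP partners. CACGTG was present in 4 of the 16 windows and in 7.26% of all 35116 promoter windows, and TGATGNAA in 5 of the 16 and in 3.62% of all windows. The 5 matches that end before the listed start are shown, since they are upstream sequence. Their genes (SLC7A5, SLC43A1, SLC38A5 and SLC1A5) were lower in mutant mRNA by the test described below, as were 18.9% of all genes tested. Of the genes with TGATGNAA matches not shown, SLC3A2 and SLC7A1 were lower, SLC38A1 was higher and SLC1A4 was not called. SLC3A2 and SLC7A1 had no E-box in a window. No share of lower genes among all genes with an E-box was computed, and a part of either motif in these changes was not tested. Capitals mark the match, and each sequence is written 5′ to 3′ on the gene's strand.
SLC7A5 E-box, chr16:87869612-87869657, minus strand: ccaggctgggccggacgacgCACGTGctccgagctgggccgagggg
SLC43A1 E-box, chr11:57515789-57515834, minus strand: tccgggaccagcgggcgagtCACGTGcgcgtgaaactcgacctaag
SLC38A5 E-box, chrX:48470441-48470486, minus strand: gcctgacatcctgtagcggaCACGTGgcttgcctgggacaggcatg
SLC1A5 E-box, chr19:46787318-46787363, minus strand: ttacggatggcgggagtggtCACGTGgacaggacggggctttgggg
SLC1A5 ATF4 element, chr19:46784884-46784931, minus strand: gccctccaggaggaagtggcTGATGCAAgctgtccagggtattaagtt
Counted from the listed start as position 1, the E-box began at -130 in SLC7A5, at -112 in SLC43A1 and at -206 in SLC38A5. In SLC1A5 the matches lay before different alternative starts, with the E-box at -50 and the ATF4 element at -97. The other 4 TGATGNAA matches, which reach or follow the listed start, were in windows of SLC3A2, SLC38A1, SLC1A4 and SLC7A1. A match is a description of letters in a window and was not tested for binding.

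The first comparison asked how carrier mRNA differed between mutant and wild type. Leucine carriers were lower in the mutant, all 3 of them, as were the glutamine carriers SLC1A5 and SLC38A5 and the cationic carrier SLC7A1, while the glutamine carrier SLC38A1 was higher. The changes were small, between 0.764 and 1.174 times the wild-type level. Of the 10 carriers 6 were lower, 1 was higher and 3 were not called (called means an adjusted p, by Benjamini-Hochberg over all 10756 genes tested, under 0.05). In the same test 37.7% of all genes were called, 18.9% lower and 18.9% higher. The carriers' median log2 fold change was -0.22, against -0.00 over all genes tested.

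SLC7A5 (ENSG00000103257, GRCh38 chromosome 16, 87830023 to 87869507) had 663 and 703 CPM in mutant mRNA libraries, against 795 and 792 CPM in wild-type mRNA libraries. The groups did not overlap, and the log2 fold change was -0.22 (SE 0.0403, edgeR adjusted p = 1e-06). SLC3A2 (ENSG00000168003, chromosome 11, 62856109 to 62888860), its partner, had 582 and 611 CPM in mutant and 738 and 748 CPM in wild-type libraries, again without overlap (log2 fold change -0.32, SE 0.0411, edgeR adjusted p = 6.6e-13). Counts of SLC7A5 are uncertain in one respect: RefSeq lists 2 pseudogenes named after it, and how reads that match several places were treated is not given in the sources used here. SLC43A1 (LAT3, ENSG00000149150, chromosome 11, 57484534 to 57515702), which carries leucine without a partner subunit or exchange, had 141 and 138 CPM in mutant and 162 and 165 CPM in wild-type libraries. Its fall of -0.23 (edgeR adjusted p = 0.0021) lost its call without wild-type mRNA replicate 2 (-0.21), with DESeq2, and once the trend with gene density described below was removed.

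SLC1A5 (ASCT2, ENSG00000105281, chromosome 19, 46774883 to 46788594), the exchanger by which proliferating cells take up much of their glutamine, had 782 and 829 CPM in mutant mRNA, against 979.6 and 1022 CPM in wild-type mRNA. The log2 fold change was -0.32 (SE 0.0387, edgeR adjusted p = 3.7e-14). SLC38A5 (SNAT5, ENSG00000017483, chromosome X, 48458544 to 48470260), which carries glutamine, asparagine, histidine and serine, had 194 and 211 CPM in mutant and 264 and 265 CPM in wild-type libraries, the lowest ratio of the 10 carriers (log2 fold change -0.39, SE 0.056, edgeR adjusted p = 1.5e-10). SLC38A1 (SNAT1, ENSG00000111371, chromosome 12, 46183063 to 46269043), a sodium-driven importer that concentrates glutamine, ran the other way, with 246 and 227 CPM in mutant and 203 and 200.3 CPM in wild-type libraries (log2 fold change 0.23, SE 0.0571, edgeR adjusted p = 0.00036). Its neighbour SLC38A2 (SNAT2, ENSG00000134294, chromosome 12, 46358188 to 46372773), which cells induce on amino acid shortage, had 388 and 347 CPM in mutant and 389.9 and 353 CPM in wild-type libraries. These overlapped, and the log2 fold change of -0.01 had a 95% interval of -0.10 to 0.09. SLC1A4 (ASCT1, ENSG00000115902, chromosome 2, 64988479 to 65023865), an exchanger of alanine, serine and cysteine, had 85.5 and 96 CPM in mutant and 93.9 and 95.8 CPM in wild-type libraries, which overlapped as well (log2 fold change -0.07, 95% interval -0.23 to 0.09).

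SLC7A11 (xCT, ENSG00000151012, chromosome 4, 138164097 to 138242349), the cystine carrier, had 87.6 and 74.8 CPM in mutant mRNA and 80.3 and 77.4 CPM in wild-type mRNA. The mutant values lay on both sides of the wild-type ones, with a log2 fold change of 0.05 and a 95% interval of -0.12 to 0.22. SLC7A1 (CAT1, ENSG00000139514, chromosome 13, 29509414 to 29595688), the main importer of arginine and lysine in many cells, had 158 and 169.5 CPM in mutant and 189 and 190.2 CPM in wild-type libraries. Its fall of -0.21 (SE 0.0619, edgeR adjusted p = 0.0027) lost its call without wild-type mRNA replicate 2 (log2 fold change -0.20), without mutant mRNA replicate 1 (-0.16) and with DESeq2. Antisense genes overlap SLC7A5 and SLC7A11 in RefSeq, and since the strand setting of the counting is not given, their reads cannot be told apart from those of the carriers.

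**Figure D1:**
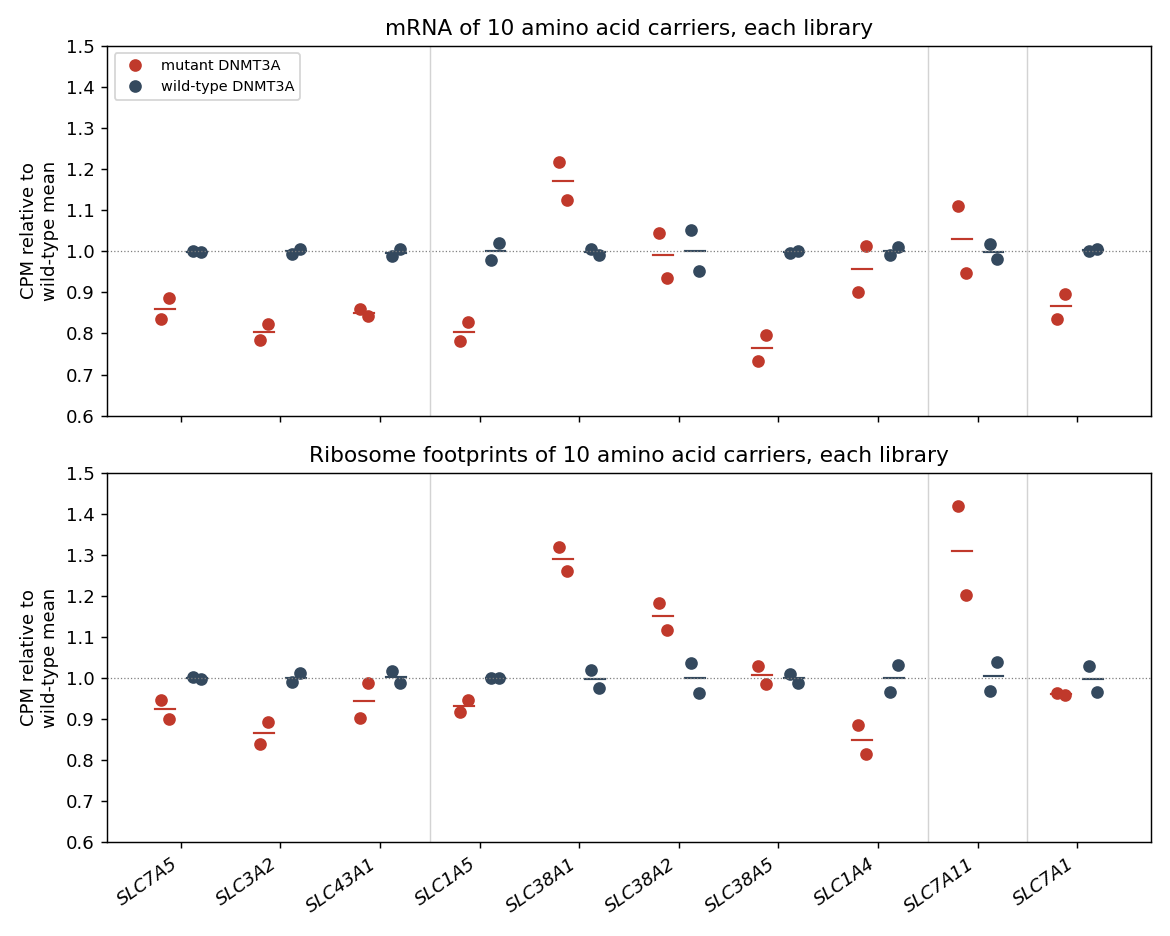
CPM of each carrier in each library, divided by the mean of the 2 wild-type libraries of the same assay, for mRNA (top) and ribosome footprints (bottom); points are libraries, short lines group means, and vertical lines part the leucine, glutamine and small neutral, cystine and cationic carriers. In mRNA the mutant libraries of 6 carriers lay below both wild-type libraries and those of SLC38A1 above them; in footprints those of SLC38A1, SLC38A2 and SLC7A11 lay above and those of SLC7A5, SLC3A2, SLC1A5, SLC1A4 and SLC7A1 below.

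The mRNA groups did not overlap for 7 of the 10 carriers, 6 lower and 1 higher in the mutant, against 33.9% of all genes in each direction. The common biological coefficient of variation between replicates was 2.25%; with 10% assumed instead, none of the 10 was called and 2.91% of all genes were.

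The second comparison asked whether ribosome occupancy changed in the same way. It did so for SLC3A2, which was lower in footprints too, and for SLC38A1, which was higher. SLC38A2 and SLC7A11 were higher in footprints and not called in mRNA, though the difference between the assays was not called for either (below), and the other 6 carriers were not called. In all, 3 of the 10 carriers were higher, 1 was lower and 6 were not called over the 9181 genes tested, where 21.2% of all genes were called, 10.2% higher and 11.0% lower. The carriers' median was -0.07, against 0.00 over all genes tested.

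SLC38A1 had 512 and 489 CPM in mutant footprint libraries, against 396 and 379 CPM in wild-type footprint libraries (log2 fold change 0.38, SE 0.0691, edgeR adjusted p = 1.1e-05). SLC7A11 had 183 and 155 CPM in mutant and 125 and 134 CPM in wild-type libraries (log2 fold change 0.40, SE 0.111, edgeR adjusted p = 0.0043), and SLC38A2 had 1102 and 1039 CPM in mutant and 965 and 896 CPM in wild-type libraries (log2 fold change 0.21, SE 0.0522, edgeR adjusted p = 0.0013). In each of these 3 both mutant values lay above both wild-type values. SLC3A2 had 1097 and 1165 CPM in mutant and 1291 and 1319.6 CPM in wild-type libraries (log2 fold change -0.21, SE 0.0493, edgeR adjusted p = 0.00052).

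The transport subunit of LAT1 did not pass the test in footprints. SLC7A5 had 809 and 769 CPM in mutant and 857 and 851 CPM in wild-type footprint libraries, with a log2 fold change of -0.11 (95% interval -0.22 to 0.00; edgeR adjusted p = 0.16). Both mutant libraries lay below both wild-type libraries. SLC1A5 had 1736 and 1792 CPM in mutant and 1891 and 1892 CPM in wild-type libraries (log2 fold change -0.10, 95% interval -0.19 to -0.02, edgeR adjusted p = 0.078), and was called lower without the filter on low counts (-0.12, edgeR adjusted p = 0.044). SLC1A4 had 186 and 171 CPM in mutant and 203 and 217 CPM in wild-type libraries (log2 fold change -0.23, 95% interval -0.42 to -0.03, edgeR adjusted p = 0.092). SLC38A5, SLC43A1 and SLC7A1 were not called either. SLC38A5 had 542 and 518 CPM in mutant and 531 and 520.1 CPM in wild-type libraries, which overlapped, with a 95% interval of -0.11 to 0.15 around 0.02. SLC43A1 had 211 and 231 CPM in mutant and 238 and 231 CPM in wild-type libraries (-0.10, 95% interval -0.28 to 0.09), and SLC7A1 321 and 319 CPM in mutant and 343 and 322 CPM in wild-type libraries (-0.05, 95% interval -0.21 to 0.10).

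The footprint groups did not overlap for 8 of the 10 carriers, 3 higher and 5 lower in the mutant, against 29.4% and 29.3% of all genes. The 4 calls were lost without mutant footprint replicate 1, which leaves the shallowest library as the only mutant one (log2 fold changes 0.34 for SLC38A1, 0.25 for SLC7A11, 0.16 for SLC38A2 and -0.17 for SLC3A2). They were also lost with an assumed coefficient of variation of 10%, where 3.13% of all genes were called, and those of SLC38A2 and SLC7A11 were lost with DESeq2. The call of SLC38A2 was also lost without wild-type footprint replicate 2 (0.15). Because footprint replicates agreed within sampling noise, the libraries of a genotype were also summed and counted as 1 sample, with no test. The log2 ratios were then 0.38 for SLC38A1, 0.40 for SLC7A11, 0.22 for SLC38A2 and -0.22 for SLC3A2. Their exact 95% counting intervals were 0.25 to 0.51, 0.18 to 0.62, 0.13 to 0.30 and -0.30 to -0.14. Intervals also lay below 0 for SLC7A5 (-0.20 to -0.01), SLC1A5 (-0.17 to -0.04) and SLC1A4 (-0.43 to -0.03), which the test did not call. Those of SLC43A1, SLC38A5 and SLC7A1 held 0.

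Footprints per mRNA, the ribosome load of a transcript relative to other genes, were compared next, with an interaction term in a model of all 8 libraries; this comparison reuses the mRNA and footprint libraries of the preceding ones. SLC38A5 and SLC1A5 had more footprints per mRNA in the mutant than in wild type: their mRNA was lower and their footprints were not called, with the exception given above for SLC1A5. That term was 0.40 on the log2 scale for SLC38A5 (SE 0.0844, edgeR adjusted p = 0.00083) and 0.21 for SLC1A5 (SE 0.0585, edgeR adjusted p = 0.024). These 2 of the 10 carriers were higher, none was lower and 8 were not called, where 4.13% of all 9166 genes tested were called, 1.67% higher and 2.47% lower. For the LAT1 subunits the interaction was 0.11 for SLC7A5 (95% interval -0.03 to 0.24) and 0.10 for SLC3A2 (95% interval -0.03 to 0.23), so a different change in footprints than in mRNA was not shown for them.

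As values per library, footprint CPM over the mean mRNA CPM of the same genotype was 2.68 and 2.56 for SLC38A5 in mutant libraries, against 2.01 and 1.97 in wild-type libraries. For SLC1A5 it was 2.16 and 2.22 in mutant and 1.89 and 1.89 in wild type. For SLC7A11 it was 2.25 and 1.91 in mutant and 1.59 and 1.69 in wild type, where the interaction of 0.35 missed the threshold (edgeR adjusted p = 0.17). For SLC38A2 the interaction of 0.21 missed it too (95% interval 0.06 to 0.36, edgeR adjusted p = 0.089), and was called in 4 of 14 alternatives, among them without wild-type mRNA replicate 2 (0.29), mutant mRNA replicate 1 (0.30) or wild-type footprint replicate 1 (0.26). This ratio was higher in both mutant libraries for 9 of the 10 carriers, all but SLC1A4, and 27.3% of all genes showed the same, while 26.3% were lower in both. SLC1A4 had 2.05 and 1.88 in mutant and 2.15 and 2.29 in wild type (interaction -0.16, 95% interval -0.41 to 0.09). The carriers' median interaction was 0.15, against -0.00 over all genes tested, and it was also 0.15 over the 142 tested SLC genes that are in no amino acid carrier list. Over the 8 tested other amino acid carriers of the plasma membrane it was larger, 0.43, with none of them called.

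The call of SLC38A5 was lost without mutant footprint replicate 1 (interaction 0.36) and with an assumed coefficient of variation of 10%, where 0.142% of all genes were called. It was kept in the other 12 of 14 alternatives. That of SLC1A5 was lost in 8 of 14 alternatives, over which the edgeR or DESeq2 adjusted p ranged from 0.0011 to 1.0. They included DESeq2, removal of the gene density trend (0.17), and leaving out wild-type mRNA replicate 2 (0.18), mutant mRNA replicate 1 (0.16) or either mutant footprint replicate (0.23 without replicate 1 and 0.18 without replicate 2).

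**Figure D2:**
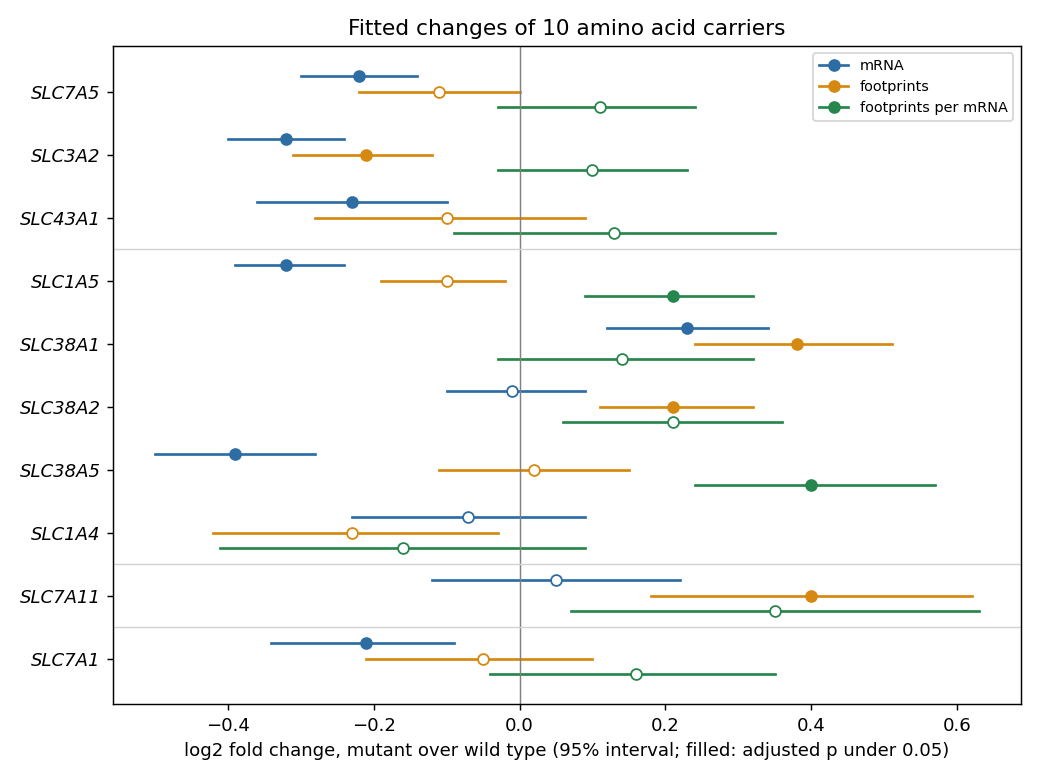
Fitted log2 fold changes of the 10 carriers, mutant over wild type, with 95% intervals, for mRNA, footprints and footprints per mRNA; filled points passed an edgeR adjusted p under 0.05. In mRNA 6 carriers lay left of 0 and filled, in footprints SLC38A1, SLC38A2 and SLC7A11 lay right of 0 and SLC3A2 left, and in footprints per mRNA SLC1A5 and SLC38A5 lay right.

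Within a genotype, the carriers differed widely in footprints per mRNA, a ratio in which gene length cancels only as far as both assays covered the same stretch of the gene. Whether they did is not known, since the counted feature is not given. The order of the carriers here, and their levels against all genes below, therefore need not be those of ribosome load alone. SLC38A2 stood highest, with 3.00 and 2.83 in mutant and 2.60 and 2.41 in wild-type libraries. SLC7A5 stood lowest, with 1.18 and 1.13 in mutant and 1.08 and 1.07 in wild type, below its partner SLC3A2 with 1.84 and 1.95 in mutant and 1.74 and 1.78 in wild type. SLC43A1, the other leucine carrier, was next above SLC7A5, with 1.51 and 1.66 in mutant and 1.45 and 1.41 in wild type. In wild type the libraries of SLC3A2 overlapped those of its neighbour SLC7A1 (1.81 and 1.70), and those of SLC1A5 overlapped those of SLC38A1 (1.96 and 1.88).

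All 10 carriers had footprints over mRNA above the library-wide level in both genotypes (edgeR assay contrast), where 59.4% of all genes were called in mutant (30.3% higher, 29.1% lower) and 70.3% in wild type (36.2% higher, 34.0% lower). The median log2 ratio of footprints to mRNA of the carriers was 1.03 in mutant and 0.87 in wild type, against 0.01 and 0.03 over all genes tested. Among the other SLC genes, 72 of 142 were called higher in mutant (median 0.43) and 68 of 142 in wild type (median 0.28). The leucine carriers' median was 0.65 in mutant and 0.52 in wild type, and that of the other 7 carriers 1.08 in mutant and 0.94 in wild type. SLC7A5 was the weakest case, at 0.21 in mutant and 0.11 in wild type. Its wild-type call (edgeR adjusted p = 0.022) was lost with DESeq2, without either wild-type mRNA library (log2 ratios 0.11 and 0.10) and without wild-type footprint replicate 1 (0.11). Its mutant call (edgeR adjusted p = 0.00041) was lost without mutant footprint replicate 1 (0.16).

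**Figure D3:**
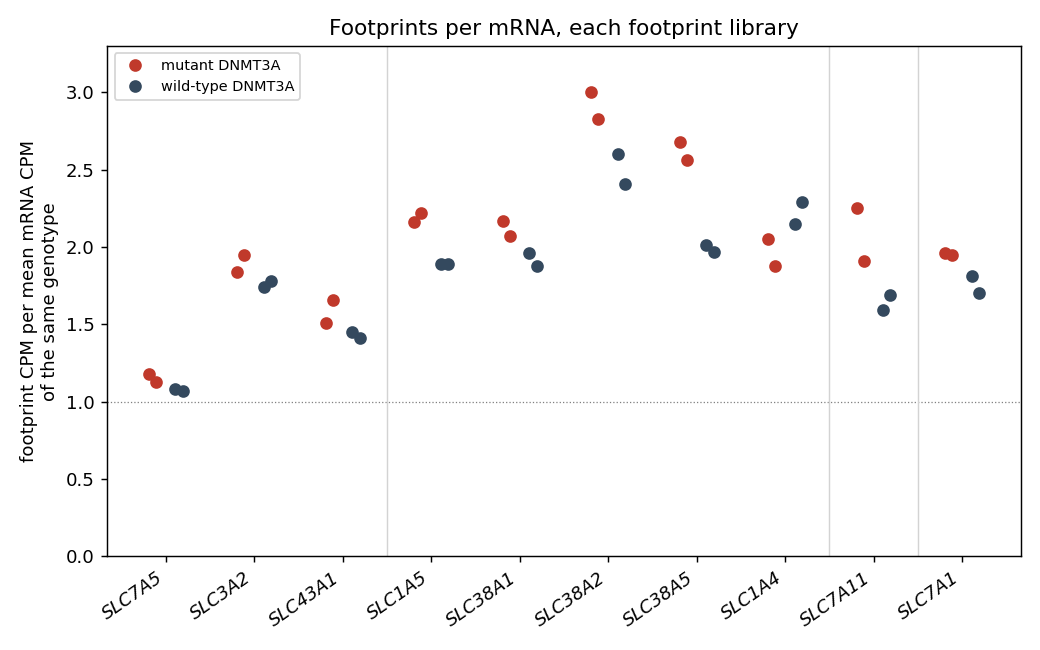
Footprint CPM of each footprint library over the mean mRNA CPM of the same genotype, for the 10 carriers; points are libraries, and vertical lines part the carrier classes. SLC7A5 lay lowest, between 1.07 and 1.18, SLC38A2 highest, between 2.41 and 3.00, and SLC38A5 showed the widest gap between genotypes.

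Leucine carriers were then set beside the other 7. In mRNA the median log2 fold change was -0.23 for the leucine carriers and -0.07 for the others, a difference of -0.16 (SD over replicate libraries 0.0205). That SD covers replicate libraries only and not the spread among genes. Single log2 fold changes ran from -0.32 (SLC3A2) to -0.22 (SLC7A5) in the leucine carriers. In the others they ran from -0.39 (SLC38A5) to 0.23 (SLC38A1), on both sides of the leucine carriers. In footprints the medians were -0.11 and 0.02, and in footprints per mRNA 0.11 and 0.21. The leucine carriers took 41.6% and 42.6% of the summed CPM of the 10 carriers in mutant mRNA, against 43.5% and 43.6% in wild-type mRNA, and 31.6% and 32.6% in mutant footprints, against 34.9% and 35.5% in wild-type footprints. Mutant libraries were lower in both assays. No such share was computed for other gene sets, and the density trend described below was not removed from it. The sum of the 10 carriers itself was 3326 and 3406 CPM in mutant mRNA against 3895 and 3909 CPM in wild-type mRNA, whereas in footprints it was 6699 and 6649 CPM in mutant and 6841 and 6761 CPM in wild type. The members were chosen with earlier results known, so these sums are given with no test.

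SLC7A5 and SLC7A11, the light subunits among the carriers that pair with SLC3A2, were also set against it. SLC7A11 over SLC3A2 was 0.1505 and 0.1225 in mutant mRNA and 0.1088 and 0.1035 in wild-type mRNA, and 0.1667 and 0.1329 in mutant footprints, against 0.0971 and 0.1012 in wild-type footprints. SLC7A5 over SLC3A2 was 1.139 and 1.151 in mutant mRNA and 1.078 and 1.058 in wild-type mRNA, and 0.738 and 0.660 in mutant footprints, against 0.664 and 0.645 in wild-type footprints. The SLC7A11 ratio was higher in both mutant libraries than in both wild-type libraries in each assay. The SLC7A5 ratio was so in mRNA, while its footprint values overlapped. In mRNA SLC7A11 itself overlapped between genotypes, while SLC3A2 was lower in the mutant. No share over other gene pairs was computed for these ratios. Of all single genes tested, 33.9% in mRNA and 29.4% in footprints were higher in both mutant libraries than in both wild-type libraries.

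Fold changes in this series followed the number of genes nearby, so the carriers are given beside that trend. Across all genes in mRNA, the median log2 fold change was 0.18 for genes with up to 5 protein-coding genes within 500 kb on either side, itself included, and -0.22 for genes with more than 30. In footprints these medians were 0.16 and -0.16. The carriers called lower in mRNA with the largest changes lie among many genes: SLC3A2 had 36, SLC38A5 28, SLC1A5 25 and SLC43A1 23. SLC38A1 and SLC38A2, with 4 each, and SLC7A11, with 1, lie in sparse regions and include every carrier that was called higher in either assay. SLC7A1, with 3, lies in a sparse region as well, but was called lower in mRNA (-0.21). SLC7A5, whose fall in mRNA (-0.22) was close to that of SLC43A1 (-0.23), had 11, and SLC1A4 had 8.

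Once a smooth trend with this number was removed, 7 of the 10 carriers were lower in mRNA and none was higher, where 13.6% of all genes were called lower and 13.2% higher. SLC7A5 then had -0.30 (adjusted p = 1.4e-11), SLC7A1 -0.39 (adjusted p = 1.8e-08) and SLC38A5 -0.24 (adjusted p = 0.00025), all by edgeR. SLC1A5 had -0.18 and SLC3A2 -0.12 (edgeR adjusted p = 0.013). SLC38A2 (-0.18) and SLC1A4 (-0.21, edgeR adjusted p = 0.041) became calls, and SLC38A1 stood at 0.05 without one. The leucine carriers then no longer lay below the others in mRNA: the difference of medians turned to 0.06. In footprints SLC38A1 stayed higher (0.22, edgeR adjusted p = 0.017), SLC7A5 (-0.17, edgeR adjusted p = 0.021) and SLC1A4 (-0.33, edgeR adjusted p = 0.011) were lower, and SLC3A2 (-0.07), SLC38A2 (0.05) and SLC7A11 (0.30, edgeR adjusted p = 0.05) lost their calls; 9.02% of all genes were then called lower and 7.94% higher. In footprints per mRNA SLC38A5 alone was called (0.37), where 1.48% of all genes were called higher and 2.5% lower. The part of local gene density, or of anything that goes with it, in the carriers' changes was not tested beyond these values.

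**Figure D4:**
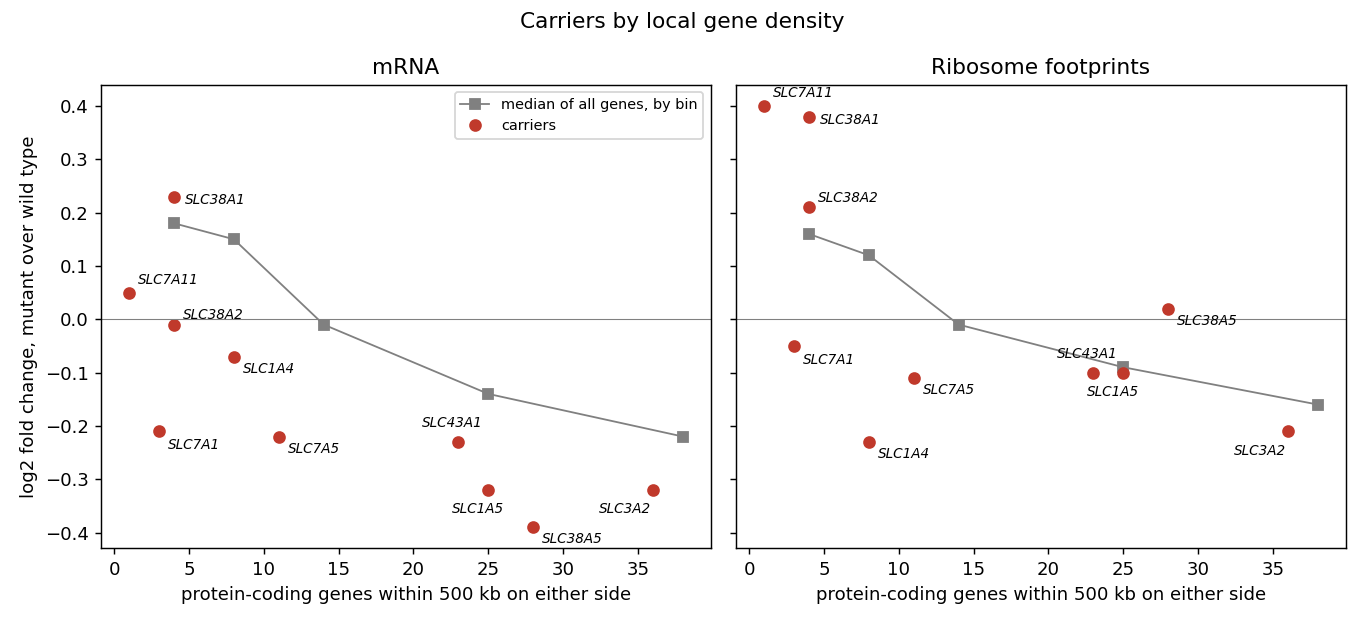
Log2 fold change, mutant over wild type, of the 10 carriers in mRNA (left) and footprints (right) against the number of protein-coding genes within 500 kb on either side; grey squares are medians of all genes in 5 bins, placed at each bin's median number. All-gene medians fell from 0.18 to -0.22 in mRNA and from 0.16 to -0.16 in footprints with rising density. The smooth fitted trend is not drawn. By its values 6 carriers (SLC7A1, SLC7A5, SLC1A4, SLC3A2, SLC43A1 and SLC1A5) lay below that trend in both assays, the last 2 by only 0.01 in footprints.

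Other amino acid carriers of the plasma membrane numbered 34 in the files, of which 8 had enough counts to be tested. In mRNA 7 of these 8 were lower, none was higher, and the median was -0.37, where 18.9% of all genes were called lower. The taurine carrier SLC6A6 had 111 and 111 CPM in mutant and 151 and 149.7 CPM in wild-type mRNA (log2 fold change -0.44, edgeR adjusted p = 1.3e-08), with -0.56 without the density trend. The glycine carrier SLC6A9 had a log2 fold change of -0.30, SLC7A6, a partner of SLC3A2 as well, -0.29, and the creatine carrier SLC6A8 -0.19. All 3 lost their calls with DESeq2 and without wild-type mRNA replicate 2, and over the alternatives ranged from -0.34 to -0.25, -0.39 to -0.15 and -0.21 to -0.02. Without the density trend SLC6A9 kept its call (-0.30), while SLC7A6 (-0.16, edgeR adjusted p = 0.14) and SLC6A8 (-0.02, edgeR adjusted p = 0.81) lost theirs. The other called genes, named here after their values were seen, had weaker calls, and their alternatives are not given here. They were the further leucine carriers SLC7A8 (LAT2, another partner of SLC3A2, -0.46, SE 0.161, edgeR adjusted p = 0.015) and SLC43A2 (LAT4, -0.48, SE 0.173, edgeR adjusted p = 0.018). The last was the neutral carrier SLC6A19 (-0.44, SE 0.154, edgeR adjusted p = 0.014). In footprints SLC6A6 alone was called (-0.28, edgeR adjusted p = 0.031), a call lost without wild-type footprint replicate 1 or either mutant footprint replicate (range over the alternatives -0.42 to -0.15), and the median of the 8 was 0.11. Lower mRNA was common among other SLC genes too: 46 of 169 tested were called lower and 15 higher, with a median of -0.12.

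Amino acid carriers listed as intracellular, among them those of lysosomes and mitochondria, numbered 24, of which 20 were tested in mRNA. There 5 were lower (25%), 1 was higher (5%) and the median was -0.08, where 18.9% of all genes were called in each direction. The lysosomal cysteine importer MFSD12 had 155 and 151 CPM in mutant and 214 and 216 CPM in wild-type mRNA (log2 fold change -0.49, edgeR adjusted p = 1e-13) and was called in all 10 alternatives. The mitochondrial glutamate carrier SLC25A22 had -0.43, a call lost with DESeq2 and without the density trend (-0.21). The lysosomal cystine exporter CTNS (-0.59) and glutamine exporter SLC38A7 (-0.50) lost their calls when single libraries were left out: CTNS without wild-type replicate 1 or mutant replicate 2 (range over the alternatives -0.83 to -0.39, and -0.46 with no call without the density trend), SLC38A7 without either wild-type replicate or mutant replicate 1 (-0.75 to -0.26). SLC36A1 (-0.40, edgeR adjusted p = 0.038) and the gene called higher, SLC38A9 (0.35, edgeR adjusted p = 0.038), a lysosomal arginine sensor, are named here after their values were seen. Their alternatives are not given here. In footprints 2 of 18 tested were lower, SLC66A1 (-0.71) and CTNS (-1.06), and 2 higher, SLC25A13 (0.37) and SFXN1 (0.28). Each direction held 11.1% of the list, near the 11.0% lower and 10.2% higher of all genes, and each of these 4 calls was lost without mutant footprint replicate 1 and without at least 1 other library. Their ranges over the alternatives were -1.0 to -0.56, -1.39 to -0.88, 0.22 to 0.42 and 0.02 to 0.42.

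Of 12 known regulators of the carriers, 3 were higher and 2 lower among 11 tested in mRNA, and 1 was higher and 4 lower among 10 tested in footprints. Over all genes 18.9% were called in each direction in mRNA, and 10.2% higher and 11.0% lower in footprints, so 2 of 11 lower in mRNA and 1 of 10 higher in footprints are at the level of all genes. MYC mRNA had 974 and 980 CPM in mutant and 1273 and 1263 CPM in wild-type libraries (log2 fold change -0.38, edgeR adjusted p = 3.2e-21), a call kept in 9 of 10 alternatives and lost with the assumed coefficient of variation. MYC footprints had 946 and 989 CPM in mutant and 1369.6 and 1376 CPM in wild-type libraries (log2 fold change -0.51, edgeR adjusted p = 5.5e-15), a call kept in all 10 alternatives. ATF4 mRNA had 519 and 529.7 CPM in mutant and 529.8 and 525 CPM in wild-type libraries, while its footprints had 58.2 and 55.4 CPM in mutant and 81.9 and 88.8 CPM in wild-type libraries (log2 fold change -0.59, edgeR adjusted p = 0.0041; interaction -0.58, edgeR adjusted p = 0.028). Both ATF4 calls were lost without either mutant footprint replicate and with the assumed coefficient of variation. The call of the ATF4 interaction was also lost with DESeq2 and without wild-type footprint replicate 2. Over the alternatives both ATF4 values ranged from -0.64 to -0.52. In mRNA NEDD4, a ubiquitin ligase, and NFE2L2, a transcription factor that raises SLC7A11, were higher (0.59 and 0.23), and KEAP1, which has NFE2L2 degraded, was lower (-0.21). NFE2L2 lost its call without mutant mRNA replicate 1, and KEAP1 without that library or wild-type mRNA replicate 2 (ranges 0.06 to 0.32 and -0.25 to -0.02). Both also lost it with DESeq2, and with the assumed coefficient all 3 did. In footprints DDIT3, a stress-induced partner of ATF4, was higher (0.82) and KEAP1 lower (-0.39). Both calls were lost without wild-type footprint replicate 1 or either mutant footprint replicate (ranges 0.67 to 1.03 and -0.48 to -0.25). They were also lost with the assumed coefficient, and that of KEAP1 with DESeq2. DDIT3 was also called higher in mRNA (0.27, edgeR adjusted p = 0.024), and the RNA-binding protein gene ELAVL1 lower in footprints (-0.32, edgeR adjusted p = 0.019). Both are named after their values were seen, and their alternatives are not given here. Without the density trend NFE2L2 stood at 0.06 in mRNA, and KEAP1 at -0.02 in mRNA and -0.25 in footprints, without a call.

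The genes whose pattern over the 8 libraries was most like that of SLC7A5, by Pearson's r of log2 CPM centred within each assay, were BCKDK (0.989), AP2A1 (0.989) and RBM14 (0.987), out of 3068 genes with a mean of at least 100 counts in each assay. For SLC3A2 they were GDE1 (0.996), EEF2 (0.995) and YDJC (0.995). Among the carriers SLC7A5 was most like SLC1A5 (0.93), SLC7A1 (0.928) and SLC3A2 (0.921), and least like SLC38A1 (-0.813). These are descriptions over libraries that share genotype and assay.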

How the data were processed

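Cells were lysed for total RNA, reverse transcribed from oligo(dT), and for RNase I footprints of 25 to 40 bases, per the labels' protocols. The values deposited by the authors are raw whole-number counts of reads for every Ensembl gene. Tools named in the submitters' processing notes are STAR, Bowtie2, featureCounts, Trimmomatic and cutadapt, with GRCh38 (hg38) as build; versions, annotation, strand setting and counted feature: not given in the sources used here. Symbols matched 20407 of 20453 IDs, and RefSeq GRCh38.p14 placed 19796.

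edgeR 4.0.16 (R 4.3.3) was run by quasi-likelihood (legacy FALSE) with TMM factors and filterByExpr. Each assay was fitted on its 4 libraries, and footprints per mRNA over 8. All 10 carriers passed the filter. SE is the size of the log2 fold change over the root of F. Alternatives were RLE factors, no filter, DESeq2 1.42.0, each library left out, a replicate block, an assumed coefficient of variation of 10%, and removal of a lowess trend (span 0.3) with local gene density; summing the footprint libraries of a genotype was chosen after seeing the data. The procedure was tested on simulated data. Without molecular identifiers reads can be copies of 1 molecule, so floors and counting intervals cover counting error only. Named were all carriers, of each other list up to 4 called genes with the smallest p per comparison, and the 3 genes most like SLC7A5 and SLC3A2. Carriers and lists were chosen with earlier results of these data known.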

Additional observations from a re-analysis of the deposited data

Results flagged for a closer look

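For 2 carriers the change in footprints differed from that in mRNA by the test of the difference itself. SLC38A5 had an interaction of genotype and assay of 0.40 on the log2 scale, and SLC1A5 of 0.21. The call of SLC38A5 was kept in 12 of 14 alternatives, and that of SLC1A5 was lost in 8 of 14, among them DESeq2 (adjusted p = 0.18) and edgeR without the density trend (adjusted p = 0.075). Groups held 2 libraries each, so no single library could be examined for standing apart.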

How the results depend on the processing

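All values here are for mutant against wild type. Genes called in mRNA numbered 4058, against 1474 with DESeq2, 313 with an assumed coefficient of variation of 10% and between 2282 (without wild-type replicate 2) and 3840 with 1 library left out. In footprints they numbered 1946, against 397, 287 and between 296 (without mutant replicate 1) and 1792. In footprints per mRNA they numbered 379, against 132, 13 and between 142 (without mutant footprint replicate 1) and 450. The 6 carriers lower and 1 higher in mRNA became 0 and 0 with the assumed coefficient, and the 1 higher became 0 without the density trend. With DESeq2 SLC43A1 and SLC7A1 lost their calls as lower. Without the density trend SLC43A1 lost its call, while SLC38A2 and SLC1A4 became calls as lower. The mRNA calls lost with 1 library left out are given with each carrier above. The 3 carriers higher in footprints became 1 with DESeq2, 0 with the assumed coefficient, 1 without the density trend and 0 to 3 with 1 library left out. The 1 lower became 2 without the filter, 0 with the assumed coefficient, 2 without the density trend and 0 to 1 with 1 library left out. The 2 higher in footprints per mRNA became 1 without the filter, with DESeq2 and without the density trend, 0 with the assumed coefficient and 0 to 3 with 1 library left out.

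The difference of medians between leucine and other carriers was -0.16 in mRNA, against -0.12 without SLC1A4, 0.06 without the density trend and -0.16 to -0.11 with 1 library left out. In footprints it was -0.13, against -0.22 without SLC1A4 and -0.20 to -0.12, and in footprints per mRNA -0.10, against -0.14 to -0.01. Values that changed sign belonged to carriers without a call. They were SLC38A5 in footprints (-0.02 to 0.04 with 1 library left out), SLC1A4 in mRNA (-0.14 to 0.02), SLC38A2 in mRNA (0.01 without the filter, -0.09 to 0.08 with 1 library left out) and SLC7A11 in mRNA (-0.09 without the density trend, -0.07 to 0.16 with 1 library left out). The cause of these changes was not tested.

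Replicate numbers are not stated to pair libraries, and with 2 per group they were not taken to. Deviations of equal numbers correlated at 0.029 to 0.209 between groups over 3068 genes, in every case above 0. Whether libraries of equal number belong together was not tested. With a replicate block mRNA calls numbered 4166, footprint calls 2075 and calls in footprints per mRNA 547, with 3 carriers lower in footprints (SLC3A2; SLC1A5, edgeR adjusted p = 0.0025; SLC7A5, edgeR adjusted p = 0.05 after rounding) and 3 higher in footprints per mRNA (SLC38A5, SLC1A5 and SLC38A2). Mutant footprint libraries held the fewest counts, 603360 and 944824.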
